A study of Mus musculus with 6 samples.

Results

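The genes described here encode the proteins of the cytosolic ribosome. They were taken from a table of read counts by gene symbol, as every row named Rpl or Rps with a number, Rplp0 to Rplp2 or Rpsa that held at least 20 counts over all libraries. 83 of 15458 rows met this rule: 32 of the small subunit, 48 of the large subunit and 3 of the stalk. 77 of them are the main copy of their protein and 6 are paralogs with a tissue-restricted or minor role (Rpl3l, Rpl7l1, Rpl10l, Rpl22l1, Rpl39l and Rps27l). Rpl3l, with 37 counts in all, was the member nearest to the minimum, and 0 matching symbols lay under it.

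The RNA came from Kupffer cells, the macrophages that reside in the liver sinusoids, sorted from wild-type C57BL/6 mice on day 18 after they received Hepa1-6 cells, a mouse hepatoma line. In the KC_EV group the tumour cells carried an empty vector, and in the KC_Epo group they overexpressed erythropoietin, the hormone that drives red cell formation; all mice bore a tumour, so no group shows the tumour-free liver. Each group had 3 libraries of polyA RNA, with 23201076 to 33280754 counts per library. The labels give each library a number within its group and say no more of the animals, so a p-value here reflects library-to-library spread.

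A ribosome is built from a small subunit, which reads the messenger RNA, and a large subunit, which joins the amino acids. Each subunit holds ribosomal RNA and a fixed set of proteins, most of them present in a single copy, while the stalk proteins of the large subunit recruit the translation factors. Many ribosomal protein messengers begin with a tract of C and T letters, the 5′ terminal oligopyrimidine or TOP tract, through which the kinase mTORC1 and the protein Larp1 set how strongly they are translated. That control acts on translation, which RNA counts do not measure.

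The start of several members is shown because this tract is the feature the family is known for. A run marked below may lie anywhere in the bases shown, so it need not be that tract. The starts used in these cells were not measured, so a member without a marked run may still carry the tract. Each line gives 30 bases of the sense strand, from 10 bases before to 20 bases after the start given by RefSeq on GRCm38.p6, a build other than the authors', and capitals mark runs of at least 8 C or T letters in a row. The first 7 are the members that hold such a run and fell in KC_Epo, the next 2 are those with a run and the highest fold changes, and the last, Rpl9, had the largest fall that passed the test and holds no such run.
Rps24 (chr14:24490668-24490697, + strand): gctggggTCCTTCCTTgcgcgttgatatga
Rpl39 (chrX:37085203-37085232, - strand): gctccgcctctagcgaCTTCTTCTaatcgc
Rpl38 (chr11:114668570-114668599, + strand): aagcctcgTTCTTTCCCCgttctcttcggt
Rps6 (chr4:86857348-86857377, - strand): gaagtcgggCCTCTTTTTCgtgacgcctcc
Rps27 (chr3:90213629-90213658, - strand): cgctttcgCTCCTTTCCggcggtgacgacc
Rpl34 (chr3:130730318-130730347, - strand): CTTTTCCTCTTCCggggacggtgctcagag
Rpl35a (chr16:33056472-33056501, + strand): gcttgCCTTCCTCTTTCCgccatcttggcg
Rps18 (chr17:33955646-33955675, - strand): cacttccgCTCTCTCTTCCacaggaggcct
Rpl14 (chr9:120571507-120571536, + strand): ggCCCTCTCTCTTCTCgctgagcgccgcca
Rpl9 (chr5:65391412-65391441, - strand): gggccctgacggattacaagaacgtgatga
Each window spans the annotated transcription start, so its downstream part is the first exon of the gene.

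RefSeq start windows were found for 63 of the 83 members. A run of at least 8 C or T letters stood in the window of 24 of the 63 genes, 38.1%, against 13.01% of all 27025 genes with a start in the same table. Of the 24 members with a run, 7 fell in KC_Epo and the median log2 fold change was -0.13. Of the 37 tested members with a start but no run, 5 fell and the median was -0.09. These are 29.2% and 13.5%, where 15.4% of all genes tested were lower. In the 300 bases from 250 before to 50 after the start, searched on both strands, CCGGAAG, the core of the sites of ETS-family factors, was found in 41.3% of the members and 9.93% of all genes. ATGGCGG, which holds the core of YY1 sites, stood in 17.5% and 4.69%, CACGTG, the E-box that Myc binds, in 9.52% and 8.09%, and TATAAA in 11.1% and 15.7%. These are matches of letters, and binding was not measured. Of 26 members with CCGGAAG, 6 fell, and of the 35 tested members with a start and no CCGGAAG, 6 fell as well, or 23.1% and 17.1% beside the same 15.4%.

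Libraries that stand apart come before the results. KC_EV 1 held 85 genes at more than 1 CPM (counts scaled to library size) and more than 4 times the level of every other library, against 0 to 7 such genes in the others. 15 of the 85 were keratins and 2 were members, Rpl39l and Rpl10l. Krt5, a keratin of basal epithelium, was at 92.8 CPM in KC_EV 1 and at most 0.18 CPM elsewhere; it is no member and was chosen after its values were seen. Among KC_Epo libraries, KC_Epo 1 had the highest summed level of 12 hepatocyte markers, 20958 CPM against 6085 and 12535 CPM in KC_Epo 2 and 3 and 2730 to 3385 CPM in KC_EV. Alb alone was at 14670 CPM in KC_Epo 1, and of the 12 hepatocyte markers 9 rose and 0 fell. KC_Epo 1 also had the highest summed level of the 7 red cell markers in the table, 1109 CPM against 606 and 810 CPM, with 33.3 to 43.1 CPM in KC_EV. Summed endothelial markers ran from 4831 to 5712 CPM in KC_EV, against 2369 to 3195 CPM in KC_Epo, and 8 of the 12 fell while 1 rose. Clec4f, the defining lectin of Kupffer cells, was at 6258 to 6611 CPM in KC_EV, against 10270 to 11970 CPM in KC_Epo. Of the 12 Kupffer markers, 9 rose and 1 fell: Adgre1, a general macrophage marker named after its value was seen, from 1389 ± 129 to 844 ± 118 CPM (SD, n = 3 each). Epo itself had 29, 44 and 21 counts in KC_Epo 1 to 3, and 0 counts in KC_EV 1, 2 and 3.

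Ribosomal protein messengers were a smaller part of the RNA in KC_Epo. The members held 3.54, 3.597 and 3.64% of all counts in KC_EV 1 to 3, against 2.83, 3.17 and 3.12% in KC_Epo 1 to 3. All KC_Epo libraries lay below all KC_EV libraries, with means of 3.59 ± 0.05% and 3.04 ± 0.19% (SD, n = 3 each), and KC_Epo 1 was the lowest. For a second share, 22 hepatocyte, erythroid and immunoglobulin genes were taken out of the total. The shares then ran from 3.55 to 3.65% in KC_EV, against 2.89 to 3.19% in KC_Epo, and the groups did not overlap. Other transcripts of those cells stayed in the total, and their part in the gap was not tested. A smaller share was not particular to the members. Mitochondrial ribosomal protein genes held 0.248 to 0.251% of all counts in KC_EV, against 0.218 to 0.224% in KC_Epo, also without overlap. The balance of the subunits differed by less than the spread between libraries: counts of small subunit over large subunit members were 0.791 ± 0.004 in KC_EV, against 0.795 ± 0.008 in KC_Epo. In bulk samples of this kind, fewer cells of a type and less RNA per cell cannot be told apart.

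**Figure D1:**
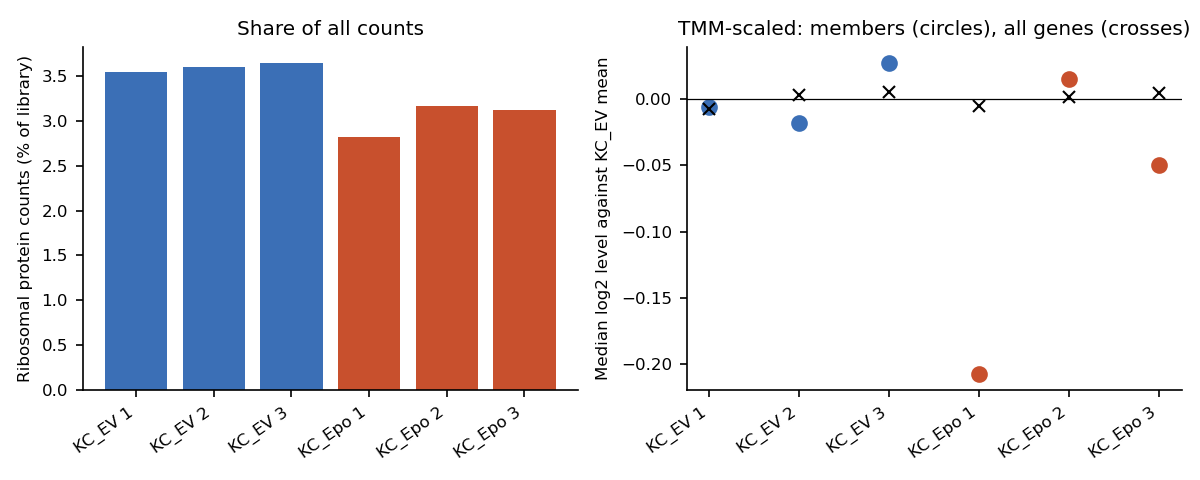
Left, bars of the percent of each library's counts in the 83 members; right, the median log2 level of 81 tested members (circles) and of all genes tested (crosses) in each library against the KC_EV mean, after TMM scaling, with KC_EV in blue and KC_Epo in orange. The KC_Epo bars reach 2.83 to 3.17% and the KC_EV bars 3.54 to 3.64%, and the circle of KC_Epo 1 lies at -0.21 on the log2 scale while the other 5 lie between -0.05 and 0.03.

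The gap between groups was smaller once libraries were scaled. TMM scaling, which equalizes libraries over the bulk of genes, gave factors of 1.05 to 1.067 for KC_EV, against 0.934 to 0.959 for KC_Epo, and on that scale the median log2 fold change of the 81 tested members was -0.08, against -0.00 for all 13120 genes tested. The middle 50% of members ran from -0.19 to 0.02, a narrower range than the -0.31 to 0.22 of all genes. Only 2 of 81 members differed by more than 0.5 on the log2 scale, against 3729 of 13120 genes. This is not particular to the members. The number was 0 of 77 mitochondrial ribosomal protein genes, 0 of 41 short respiratory chain messengers and 0 of 17 other TOP messengers. With library sizes only, the median of all genes moved to -0.16 and that of the members to -0.24, so the distance between them stayed at 0.08. On that scale 48 members were lower and 0 higher, where 27.6% of all genes were lower and 9.09% higher.

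By the edgeR quasi-likelihood test at an adjusted p of 0.05, 14 of 81 members fell in KC_Epo, 17.3%, where 15.4% of all genes tested were lower. By the same test 0 members rose, against 16.9% of all genes; 3 members were higher at an unadjusted p of 0.05, 1 was higher by DESeq2 and 0 by limma-voom, where 17.6% and 16.1% of all genes were. The members that were lower numbered 19 by DESeq2 and 16 by limma-voom, against 16.3% and 15.6% of all genes. In the edgeR fit with TMM scaling the share that fell was thus near that of all genes; with upper-quartile factors 28 of 81 fell, where 19.3% of all genes did, and with library sizes only 48 did, as given above. The groups did not overlap for 26 members that were lower and 3 that were higher, where 24.2% and 24.1% of all genes did so. 6 of 31 main copies of the small subunit fell, 8 of 43 of the large subunit and 0 of 3 of the stalk.

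The count moved when KC_Epo 1 was left out. This library was the lowest of the 6 libraries for 63 of 81 members, and its level was below that of KC_Epo 2 for 77 of them, 95.1%, against 51.3% of 11748 genes expressed in KC_Epo. The median ratio of KC_Epo 1 to KC_Epo 2 was 0.861 over the members and 0.994 over those genes. Without KC_Epo 1, 10 members were lower and 5 higher by edgeR's adjusted p, where 16.0% and 18.0% of all genes were, and the medians of members and of all genes were both -0.01. All 10 were among the 14, and the 5 were Rpsa, Rps2, Rpl12, Rplp1 and Rps18. Without KC_EV 1 and KC_Epo 1 together, 17 members were lower, including all 14, and 5 higher, where 18.1% and 18.8% of all genes were. Hepatocyte and red cell transcripts were also highest in KC_Epo 1, as given above, and their part in this difference was not tested.

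**Figure D2:**
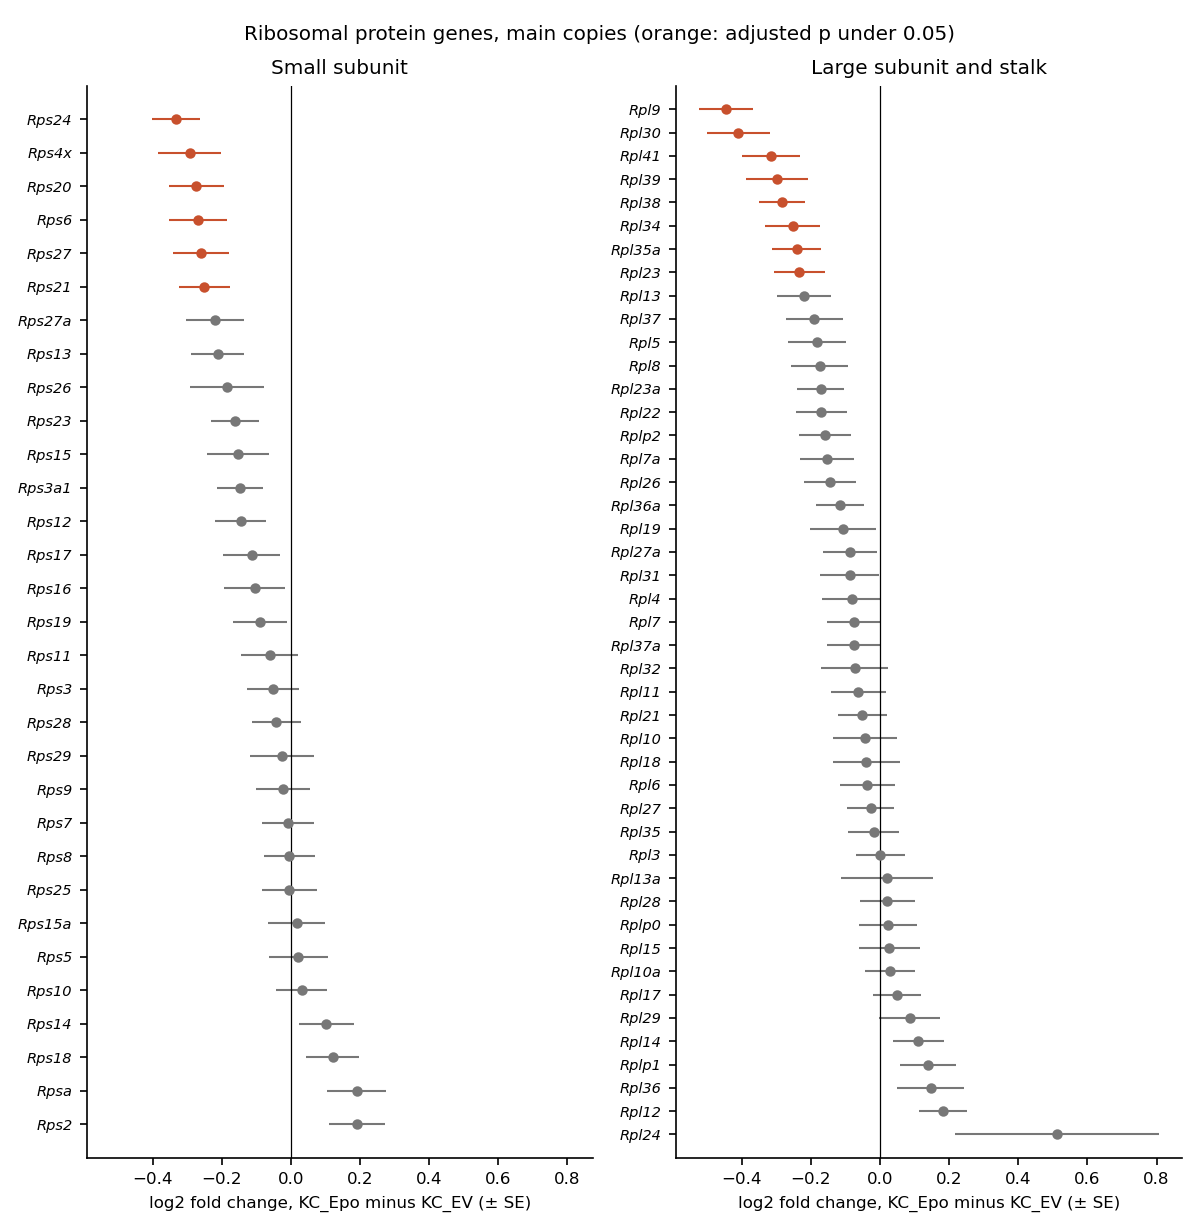
Log2 fold change of KC_Epo minus KC_EV (x axis, bars are the SE) for main copies of the small subunit (left) and of the large subunit and stalk (right), sorted, with members past an adjusted p of 0.05 in orange. The 14 orange points lie between -0.45 and -0.23, and 0 points to the right of 0 are orange.

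Among the small subunit proteins, Rps24, which takes part in processing the precursor of the small subunit RNA and is mutated in Diamond-Blackfan anaemia, had the most marked fall. Its level was 799, 748 and 736 CPM in KC_EV 1 to 3, against 594, 600 and 620.5 CPM in KC_Epo 1 to 3. The 3 KC_Epo libraries lay close together and below every KC_EV library. The log2 fold change was -0.33 ± 0.07 (SE), with an edgeR adjusted p of 0.0038. Rps6, the protein that S6 kinases phosphorylate when mTORC1 is active, was at 276, 288 and 288.5 CPM in KC_EV, against 208, 259 and 241 CPM in KC_Epo. Here KC_Epo 1 was well below the other libraries, although the groups did not overlap. The fall of Rps6 was -0.27 ± 0.08 as a log2 fold change (adjusted p = 0.029), and without KC_Epo 1 the change was -0.18 with an edgeR adjusted p of 0.061.

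Rps27, a zinc-binding protein of the small subunit, was at 371, 339 and 358 CPM in KC_EV, against 268, 314 and 310.1 CPM in KC_Epo. Again the groups were separate and KC_Epo 1 was lowest; the log2 fold change was -0.26 ± 0.08 (edgeR adjusted p = 0.026), and without KC_Epo 1 it was -0.19 (adjusted p = 0.054). The other 3 small subunit genes that fell are named after their values were seen: Rps4x, the X-linked copy of its protein, by 0.29, Rps20 by 0.27 and Rps21 by 0.25 on the log2 scale. Rps19, the gene most often mutated in Diamond-Blackfan anaemia, was at 332 to 386 CPM in KC_EV, against 333 to 359 CPM in KC_Epo, and the groups overlapped. Its log2 fold change was -0.09 ± 0.08 with an edgeR adjusted p of 0.41. Over the 19 members linked to that anaemia, 3 fell (Rps24, Rps27 and, named after its value was seen, Rpl35a), 0 rose, and the median was -0.06; the 15.8% that fell is close to the 15.4% of all genes.

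Other small subunit genes had higher means in KC_Epo without passing the test. Rpsa, which also serves as a laminin receptor precursor, was the highest member in KC_Epo, at 860, 1035 and 974 CPM against 786, 850 and 879 CPM in KC_EV. The lowest KC_Epo value lay inside the KC_EV range. The log2 fold change was 0.19 ± 0.09 with an edgeR adjusted p of 0.11, and without KC_Epo 1 it was 0.27 with an adjusted p of 0.0098. Rps2, whose protein lies at the messenger entry side of the small subunit, was at 476, 489 and 517 CPM in KC_EV, against 519, 619 and 555 CPM in KC_Epo. The groups were separate by a narrow margin, and the log2 fold change of 0.19 ± 0.08 had an edgeR adjusted p of 0.086, or 0.014 without KC_Epo 1. Rps9, Rps12 and Rps29, among the most abundant small subunit messengers, had log2 fold changes of -0.02, -0.15 and -0.03 and did not pass. Rps27a, made as a fusion with ubiquitin, was at 485.3 to 540.4 CPM in KC_EV, against 403 to 485.2 CPM in KC_Epo, so the groups barely did not overlap. Its log2 fold change was -0.22 ± 0.08 with an edgeR adjusted p of 0.062.

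In the large subunit, Rpl9 had the lowest adjusted p of all members. Its protein sits near the site where translation factors bind. Rpl9 was at 568, 548 and 551 CPM in KC_EV 1 to 3, against 372, 440.1 and 412 CPM in KC_Epo 1 to 3. Every KC_Epo library lay more than 100 CPM below every KC_EV library. The log2 fold change was -0.45 ± 0.08 (edgeR adjusted p = 0.0011), and Rpl9 was the only member past an edgeR test against a 1.2-fold change (adjusted p = 0.032), which 8.96% of all genes passed as lower and 7.33% as higher. 86.7% of the 50-base stretches of the Rpl9 transcript also occur in other annotated genes, 13 of them pseudogenes, so reads of near-identical copies could be shared among rows.

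Rpl30, an RNA-binding protein of the large subunit, was at 339, 285 and 293 CPM in KC_EV, against 205, 245 and 239.9 CPM in KC_Epo. KC_EV 1 was the highest and KC_Epo 1 the lowest, and the groups did not overlap. The log2 fold change was -0.41 ± 0.09 with an edgeR adjusted p of 0.0050. Rpl38, which is needed for translation of Hox messengers in the mouse embryo, was at 323, 317 and 332 CPM in KC_EV, against 262.5, 266 and 269.7 CPM in KC_Epo. Libraries of a group lay close together, with SDs of 7.7 and 3.6 CPM, and the groups were well apart. Its log2 fold change was -0.28 ± 0.07 (edgeR adjusted p = 0.0063). Rpl9, Rpl30, Rpl38 and Rps24 were the 4 members whose fall held when each of the 6 libraries was left out in turn. The other 10 each lost the call in 2 to 5 of those fits, with edgeR adjusted p-values of at most 0.159 and no change of sign.

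Rpl41 and Rpl39 are among the smallest proteins of the large subunit. Rpl41, a very short basic peptide, was at 627, 696 and 686 CPM in KC_EV, against 482, 559.5 and 574 CPM in KC_Epo, and fell by 0.31 ± 0.08 on the log2 scale (edgeR adjusted p = 0.014). Rpl39, which lines the tunnel through which the new chain leaves, was at 234, 202 and 206 CPM against 154, 186 and 182 CPM. Its groups did not overlap and its log2 fold change was -0.30 ± 0.09 (edgeR adjusted p = 0.022), or -0.21 without KC_Epo 1 (adjusted p = 0.053). Rpl23, which forms bridges between the subunits and can bind Mdm2, was at 737 to 809 CPM in KC_EV, against 628 to 682.5 CPM in KC_Epo. It fell by 0.23 ± 0.07 on the log2 scale with an edgeR adjusted p of 0.032. Rpl34 and Rpl35a, named after their values were seen, fell by 0.25 and 0.24.

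**Figure D3:**
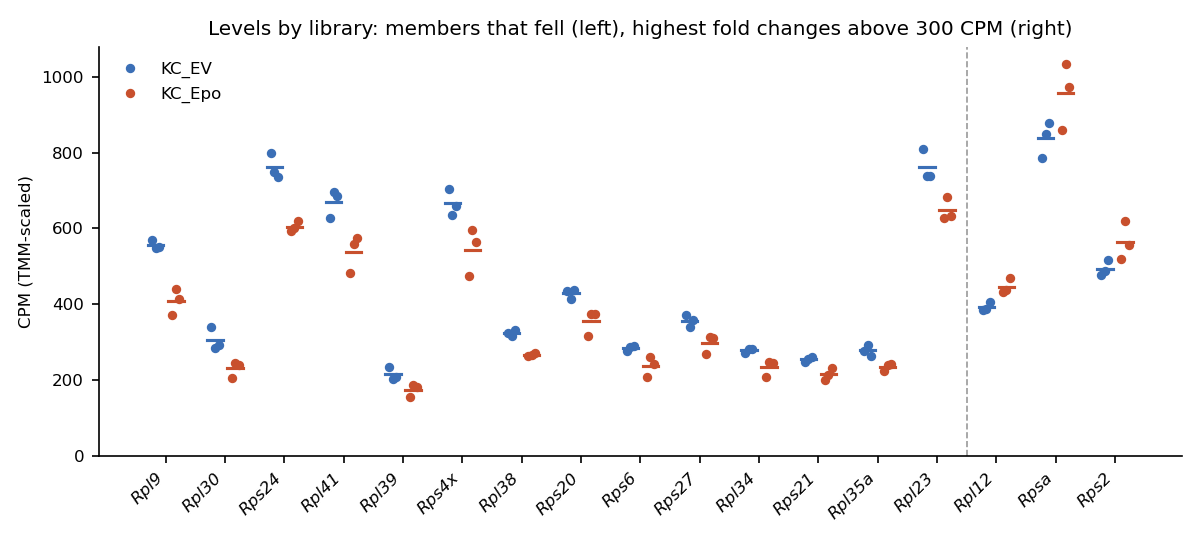
TMM-scaled CPM (y axis from 0) of the 14 members that fell, sorted by fold change, and, right of the dashed line, of Rpl12, Rpsa and Rps2; each dot is a library, bars are group means, KC_EV is blue and KC_Epo orange. For all 14 the orange dots lie below the blue ones, as for Rpl9 with 372 to 440.1 against 548 to 568 CPM.

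Rpl12, at the base of the stalk, was the large subunit gene of ordinary abundance with the highest fold change. It was at 384, 388 and 407 CPM in KC_EV, against 432, 438.5 and 468 CPM in KC_Epo. The groups did not overlap, the log2 fold change was 0.18 ± 0.07, and the edgeR adjusted p was 0.062; DESeq2 gave an adjusted p of 0.025. Of the stalk proteins themselves, which bind the elongation factors, Rplp1 was at 723, 801 and 821 CPM in KC_EV, against 791, 882 and 907 CPM in KC_Epo. Rplp2, its partner, was at 491 to 551 CPM in KC_EV, against 442 to 492 CPM in KC_Epo. The groups overlapped for both, with log2 fold changes of 0.14 ± 0.08 for Rplp1 and -0.16 ± 0.08 for Rplp2. Rplp0, the anchor of the stalk, had a log2 fold change of 0.02 ± 0.08.

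Rpl5 and Rpl11, which travel together with a small ribosomal RNA and bind Mdm2 when assembly fails, did not pass the test. Rpl5 was at 362, 301 and 319 CPM in KC_EV, against 271, 306.5 and 289 CPM in KC_Epo, and Rpl11 at 386.5 to 412 CPM and 343 to 407.5 CPM. Both overlapped between groups, and the log2 fold changes were -0.18 ± 0.08 and -0.06 ± 0.08. Rpl10, a late-joining protein near the peptidyl transferase centre, had a log2 fold change of -0.04 ± 0.09. Rpl3 and Rpl4, among the largest ribosomal proteins and most abundant messengers here, had log2 fold changes of 0.00 ± 0.07 and -0.08 ± 0.08. Rpl7a, also in that upper range of levels, had -0.15 ± 0.08. Rpl36 had 0.15 ± 0.10 with overlapping groups.

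Since an assembled ribosome takes most of its proteins in equal number, levels were also set per length of transcript. In CPM per kilobase of the annotated transcript, the main copies had a median of 534.5 in KC_EV and 511 in KC_Epo, with a middle 50% of 416 to 755 and 388 to 709. Rps29, Rps12 and Rplp1 had the highest levels on that scale, at 1773, 1664 and 1566 CPM per kilobase in KC_EV. At the other end, Rpl24 and Rpl13a stood apart from all other main copies. Rpl24, which bridges the subunits, had 62, 58 and 76 counts in KC_EV and 101, 96 and 50 counts in KC_Epo, or 2.98 CPM per kilobase in KC_EV. Rpl13a was at 25.5 CPM per kilobase. Of the 50-base stretches of their transcripts, 81.7% and 57.4% occur in other annotated genes. Rpl24 had the highest log2 fold change of all members, 0.51 ± 0.29, on these low counts (edgeR adjusted p = 0.20), with KC_EV at 1.85 to 2.24 CPM and KC_Epo just above at 2.28 to 3.25 CPM, and Rpl13a had 0.02 ± 0.13. The values of single members are uncertain where copies share reads, and more than 50% of such stretches were shared in 45 of the 83 members.

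The main copies were also ordered by the GC content of their transcript, which the rule did not use. GC content and length are those of 1 annotated transcript per gene, the one with the longest coding part. Another transcript could place a gene elsewhere in the order. Rps20, with a transcript of 3706 bases and 41.3% GC, was kept in these orders. Of 26 main copies with a GC content of at most 50%, 9 fell and the median log2 fold change was -0.18. Of 26 between 50 and 53.6%, 2 fell and the median was -0.05, and of 25 above that, 3 fell and the median was -0.00. As shares these were 34.6, 7.69 and 12% of the members, where 16.4, 16.3 and 13.6% of genes outside the members were lower within the same limits. Across the 77 main copies, GC content and log2 fold change had a Spearman rho of 0.43 and a Pearson r of 0.38; these genes share the same 6 libraries and are not replicates. Genes outside the members moved in the same order within the same GC limits, with medians of -0.05, 0.00 and 0.06. Among the main copies the order held in each KC_Epo library. From low to high GC, their medians against the KC_EV mean were -0.26, -0.22 and -0.14 in KC_Epo 1. They were -0.11, 0.04 and 0.07 in KC_Epo 2 and -0.15, -0.01 and 0.04 in KC_Epo 3. Genes outside the members were at -0.016, -0.021 and 0.031 in KC_Epo 1, with no rise from low to middle GC, while their medians rose at each step in KC_Epo 2 and 3. Single KC_EV libraries were not examined in this way. Transcript length had a rho of 0.13 and the share of 50-base stretches found elsewhere a rho of 0.16. When the main copies were ordered by length, 7 of 26 of the shortest main copies fell, 2 of 26 of the middle and 5 of 25 of the longest. Among genes outside the members, 13.3% were lower for transcripts of up to 600 bases, 12.5% from there to 1000 bases and 13.5% from there to 2000 bases. GC content was not modelled in the test, and its part in the result was not tested.

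Of the 6 paralogs, Rpl39l and Rpl10l stood apart in KC_EV 1. Rpl39l, a relative of Rpl39 best known from the testis, had 416 counts in KC_EV 1 and 46, 65, 32, 54 and 26 in KC_EV 2 and 3 and KC_Epo 1 to 3. Rpl10l, the testis relative of Rpl10, had 143 counts in KC_EV 1 and 0 or 1 count in each other library. Per 1000 counts of the main copy, Rpl39l was at 56.1 in KC_EV 1 and 6.52 to 9.33 elsewhere, and Rpl10l at 7.49 against 0 to 0.078. The fitted log2 fold change of Rpl39l, -2.05 ± 1.04 with an edgeR adjusted p of 0.21, rests on KC_EV 1: without that library it was -0.36 with an adjusted p of 0.55. The same library was high for Rpl13a-ps1, a pseudogene row that is no member, at 9.11 CPM against 0.48 to 0.82 CPM. Keratins were high in that library too, as given above, and their part was not tested.

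The other paralogs were set against their main copies in the same way. Rpl22l1, which can take the place of Rpl22, was at 317 to 364 counts per 1000 of Rpl22 in the 6 libraries, and the KC_EV values lay inside the KC_Epo range. Rps27l, a relative of Rps27 that p53 can induce, was at 141 to 151 per 1000 in KC_EV and 145 to 174 in KC_Epo, and Rpl7l1, a relative of Rpl7 that acts in assembly, at 107 to 121 and 123 to 136. The ratio ranges overlapped between groups for Rps27l and did not for Rpl7l1. The log2 fold changes were -0.19 ± 0.09, -0.15 ± 0.08 and 0.10 ± 0.08, and 0 of these 3 passed. Rpl3l, the muscle form of Rpl3, had 1 to 10 counts per library. Rpl36al, a close relative of Rpl36a outside the symbol rule, was at 9.46 to 18.0 per 1000 counts of Rpl36a.

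**Figure D4:**
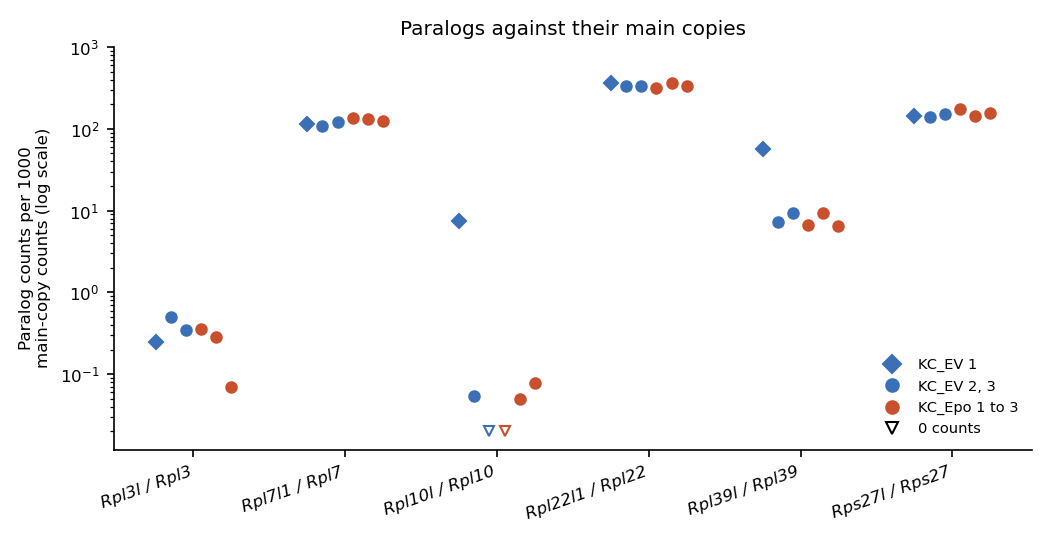
Counts of 6 paralogs per 1000 counts of their main copy (log y axis), 1 mark per library; the diamond is KC_EV 1, blue circles KC_EV 2 and 3, orange circles KC_Epo, and open triangles libraries with 0 counts, drawn at the foot of the axis. The diamond stands above all other marks for Rpl39l (56.1 per 1000) and Rpl10l (7.49 per 1000), and all 6 marks lie together for Rpl22l1.

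Proteins outside the symbol rule that also belong to the ribosome were close to the members. Fau, made as a fusion whose end is a small subunit protein, and Rack1, a scaffold on the small subunit, had log2 fold changes of -0.09 ± 0.10 and -0.04 ± 0.09 and did not pass the test. Of 17 other messengers known to carry a TOP tract, 1 fell and 0 rose, with a median of -0.04. The one that fell was Eef1b2, an exchange factor of translation elongation, from 356 ± 13 to 268 ± 19 CPM (SD, n = 3 each), a log2 fold change of -0.41 ± 0.08 with an edgeR adjusted p of 0.0016. Mitochondrial ribosomal proteins, which build another ribosome, had 8 lower and 6 higher of 77 and a median of -0.03, among them Mrpl52 at -0.48 and Mrps6 at 0.44. Of 41 short messengers of the respiratory chain, 3 fell (Cox6b1 by 0.46, Cox5a by 0.38 and Uqcrh by 0.24) and 0 rose. With library sizes only, 8 of the 17 other TOP messengers, 23 of the 77 mitochondrial genes and 20 of the 41 respiratory genes were lower. In that setting 0, 2 and 0 of them were higher. Of all genes tested, 27.6% were lower and 9.09% higher there, and 15.4% and 16.9% with TMM scaling.

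Genes that make and regulate ribosomes included both rises and falls. Of all genes tested, 16.9% rose and 15.4% fell with TMM scaling, and 9.09% and 27.6% with library sizes only. Of 18 genes of mTORC1 signalling and its control of TOP messengers and Myc, 6 rose and 0 fell, with a median of 0.19. Myc, a transcription factor known to drive ribosome production, rose from 144 ± 2.7 to 250 ± 19 CPM, a log2 fold change of 0.80 ± 0.07. Akt1s1 and Deptor, both inhibitors within mTORC1, rose by 0.45 and 0.46. With library sizes only, 2 of the 18 rose and 1 fell, and the median was 0.03 where that of all genes was -0.16. Of 44 ribosome biogenesis factors, 5 rose, led by Heatr1 (0.56), Wdr75 (0.48) and Wdr12 (0.39), which act in making the ribosomal RNA and the subunits, and 1 fell; with library sizes only, 2 rose and 13 fell.

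Subunits of RNA polymerase I, which transcribes the large ribosomal RNA precursor, and its factors moved in both directions: Polr1a rose by 0.33, Polr1c and Znrd1 fell by 0.36 and 0.32, and 12 of 15 did not pass. With library sizes only, 0 of the 15 rose and 5 fell, and Polr1a was at 0.17 (edgeR adjusted p = 0.12). Of 36 initiation factors, 2 rose (Eif2b2, a subunit of the exchange factor of eIF2, by 0.74, and the scaffold Eif4g3 by 0.35) and 3 fell, among them Eif1b by 0.30; with library sizes only, 1 rose and 13 fell, and Eif4g3 did not pass (0.19, edgeR adjusted p = 0.091). Of 12 elongation and termination factors, Eef2k, the kinase that inhibits elongation factor 2, rose by 0.58, and Eef1b2 was the only one that fell. Of 11 factors that resolve stalled ribosomes, Pelo fell by 0.95 and 3 rose, among them Ankzf1 by 0.30 and Zfp598 by 0.29; with upper-quartile factors or library sizes only, 0 of the 11 rose. Among 9 chaperones and importins of ribosomal proteins, 0 passed by the edgeR adjusted p. Beside these counts, 16.9% of all genes rose and 15.4% fell with TMM scaling. The shares were 13.1% and 19.3% with upper-quartile factors, and 9.09% and 27.6% with library sizes only.

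**Figure D5:**
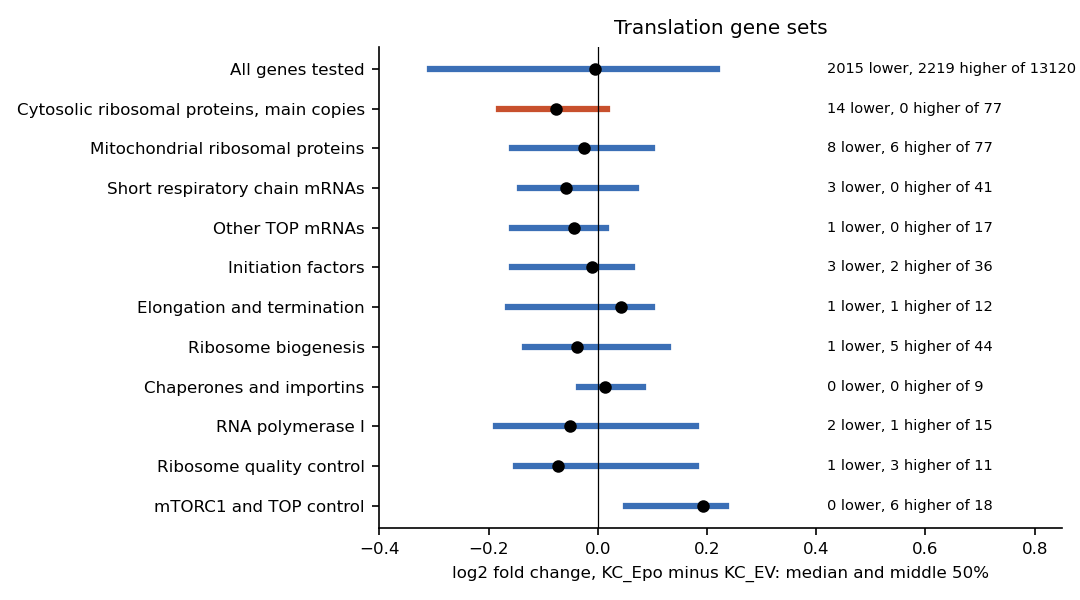
Median (black dot) and middle 50% (bar) of the log2 fold change, KC_Epo minus KC_EV, for all genes tested, the 77 main copies (orange bar) and 10 sets of translation genes, with the numbers lower and higher at an edgeR adjusted p of 0.05 printed beside each. The main copies have 14 lower and 0 higher with a median of -0.08, and the set of mTORC1 and TOP control has 0 lower and 6 higher with a median of 0.19.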

How the data were processed

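Libraries were prepared from polyA RNA with a stranded Illumina kit, per the labels' protocols. Tools named in the submitters' processing notes are HTSeq 0.11.2, STAR 2.7.3a, Bowtie2 2.5.1 and FastQC 0.11.8, with build GRCm39; roles and counting options were not given. The deposited values are whole-number read counts per gene symbol, not normalized. The members and lists were chosen with earlier results of these data known.

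The main fit used edgeR 4.0.16 (R 4.3.3) on all 6 libraries without a block: TMM scaling, the default filterByExpr, robust quasi-likelihood dispersions and two-sided F tests, with Benjamini-Hochberg adjustment over 13120 genes. An adjusted p with no other tool named is from it. Of 83 members, 81 passed the low-count filter; Rpl10l and Rpl3l did not. Levels are TMM-scaled CPM. The SE was derived from the F statistic. No library was a copy of another (the lowest chi-square per gene between libraries of a group was 6.14). Transcript length, GC content and shared 50-base stretches came from GENCODE M21 (GRCm38), and start windows from RefSeq (GRCm38.p6), which are not the authors' build; Rps20 was left out of levels per length.

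Named members were the 4 most abundant of each subunit and the stalk, the 6 lowest and 6 highest fold changes, the paralog pairs and 9 members of known role; of each translation list, up to 3 genes with the smallest adjusted p were named. Some genes that this rule names are left out of the text and of the sorted plot of fold changes. The fit was repeated with 5 other choices of size factor (RLE, upper quartile, none beyond library size, TMM computed without the members, and totals without hepatocyte, erythroid and immunoglobulin genes), with 2 other count filters, without robust dispersions, with the replicate number as block, against a minimum change of 1.2-fold, with DESeq2 1.42.0 and limma-voom (limma 3.58.1), and with 1 library dropped at a time. Of the size factor choices, 2 could hardly change the fit and are no check of it. TMM computed without the members left out only 81 of 13120 genes. The totals without 22 hepatocyte, erythroid and immunoglobulin genes were themselves scaled by TMM, which undoes the change. Dropping KC_EV 1 and KC_Epo 1 together was chosen after seeing the data. The procedure was tested on simulated counts.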

Additional observations from a re-analysis of the deposited data

How the results depend on the processing

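The count of 14 members that fell was 28 with upper-quartile factors (19.3% of all genes lower), 48 with library sizes only, where the members' median log2 fold change was -0.24, and 1 in a test against a 1.2-fold change, where 2138 genes were called in place of 4234. It was 5 to 18 over the 6 fits that each left out 1 library, with 2728 to 4557 genes called and members' medians of -0.13 to -0.01. It was 5 without KC_EV 3, where 10.5% of all genes were lower, and 6 without KC_EV 2, where 10.2% were. Without KC_Epo 3 it was 6 (9.31% of all genes lower) and without KC_EV 1 it was 8 (12.9%). Without KC_Epo 2 it was 18 (13.8%) and without KC_Epo 1 it was 10 (16.0%). The count of members that rose was 0 to 5 over those 6 fits, 5 being without KC_Epo 1, where 11.0 to 18.0% of all genes rose. It was 1 with DESeq2 and 5 without KC_EV 1 and KC_Epo 1 together, where 17 were lower, all 14 among them. The size factors alone differ in the first 2 settings and the samples in the fits with a library left out; beyond that the cause was not tested. The share of counts was 3.57 to 3.61% in KC_EV and 3.02 to 3.08% in KC_Epo over its alternatives.

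The labels do not say whether same-numbered libraries belong together. Deviations from the group means had correlations of -0.11, -0.15 and -0.04 between same-numbered libraries. No strong shared effect was seen, but 3 libraries a group cannot decide whether the libraries were paired. With a replicate block, 9 members were lower, all among the 14, and 0 were higher. In that fit 3358 genes were called, with 11.9% of all genes lower and 13.7% higher.

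Log2 fold changes that turned direction were all, among those reported, of members that did not pass the test. With upper-quartile factors, Rpl13a was at -0.042, Rpl3 at -0.061 and Rplp0 at -0.038. With library sizes only, Rpl13a was at -0.14, Rpl3 at -0.16, Rpl36 at -0.013, Rpl7l1 at -0.055, Rplp0 at -0.14 and Rplp1 at -0.022. With the filter of 1 CPM, Rpl3 was at -0.011. Over the fits that left out 1 library, Rpl10 ranged from -0.13 to 0.063, Rpl11 from -0.099 to 0.018, Rpl13a from -0.053 to 0.15, Rpl3 from -0.021 to 0.037, Rplp0 from -0.035 to 0.088, Rps29 from -0.083 to 0.083 and Rps9 from -0.060 to 0.041. Without KC_EV 1 and KC_Epo 1 together, Rpl10 was at 0.062, Rpl11 at 0.022, Rpl3 at -0.0058, Rpl4 at 0.029 and Rps29 at 0.066.

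With 3 libraries a group, 1 library can decide whether a change of this size is called. Counting error is small for all members but Rpl24, Rpl39l, Rpl10l and Rpl3l.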
